A study of Mus musculus with 4 samples.

Results

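The genes of MHC class II antigen presentation were followed in the liver of ob/ob mice across CD, CD+7KC, WD and WD+7KC. They were chosen by symbol and number 9 of the 24346 genes listed in each library: H2-Aa, H2-Ab1 and H2-Eb1, which encode chains of the classical class II molecules, Cd74, H2-DMa, H2-DMb1, H2-Oa, H2-Ob and Ciita. All 9 were above 0 FPKM in all 4 libraries. Male ob/ob mice are obese because they lack functional leptin, and all 4 groups described here carried this defect. The diets were given for 4 weeks to mice that were 6 weeks old at the start. CD was a chow diet and WD a western-type diet rich in cocoa butter and sucrose, both contained 1% cholesterol, and 7KC (7-ketocholesterol, an oxidised form of cholesterol) made up 0.01% of the diets named with it. Each group was represented by 1 library, and the number of mice behind a library was not given in the sources used here. Differences between groups therefore could not be set against a spread between replicates, and p-values are not given. FPKM values in lists of 4 are in the order CD, CD+7KC, WD and WD+7KC throughout.

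Class II molecules carry peptides from proteins taken up by a cell to its surface, where CD4+ T cells read them. They are made mainly by dendritic cells, B cells and macrophages, in liver including Kupffer cells and sinusoidal endothelial cells, and little by hepatocytes. The invariant chain Cd74 guides newly made α and β chains to endosomes and blocks their groove, H2-DM exchanges the last invariant chain fragment for a peptide, and H2-O restrains H2-DM. Ciita is the coactivator that switches these genes on, acting through factors bound at the X and Y boxes of their promoters. In whole liver, more cells of a type and more RNA per cell cannot be told apart.

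The libraries were liver by their markers: Alb was the most abundant hepatocyte marker in each, at 30014 to 35981 FPKM. Low FPKM values rose in steps of whole reads, from which it was estimated that 1 FPKM corresponded to 9.4 to 12.1 reads per kilobase. Read numbers and 95% intervals below rest on these estimates and cover counting error only, not the variation between mice. The FPKM values summed to 602059 in WD+7KC and to 696062 to 715605 in the other libraries, which bears on small changes in WD+7KC. Between WD+7KC and WD, the log2 fold changes of all genes had a median of 0.0021 as deposited and of 0.21 after rescaling to equal sums.

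The levels of the members spanned 0.0731 to 251 FPKM, a scale per kilobase on which genes can be compared. Cd74 was the highest member in every library, at 77.4, 91.9, 166 and 251 FPKM. H2-Aa, the α chain of the I-A molecule, was next, at 45.8, 60.7, 95.1 and 129 FPKM. Its partner H2-Ab1, the I-A β chain, stood at 38.9, 38.1, 69.1 and 93.3 FPKM. In all of these genes both WD libraries lay above both CD libraries. H2-Eb1, the β chain of I-E, had 22.9 and 23.4 FPKM on CD and 53.0 and 56.1 FPKM on WD, so that its values formed a low and a high pair by diet. The order of these 4 genes was the same in all 4 libraries, and neighbours in it had counting intervals that did not overlap, except H2-Aa and H2-Ab1 in CD. Together the 9 members summed to 190, 224, 396 and 549 FPKM, and Cd74 made up 40.7% to 45.7% of each sum.
The peptide exchange genes were lower. H2-DMa was at 2.44, 2.93, 5.67 and 6.16 FPKM. H2-DMb1, which encodes the other chain of H2-DM, was at 2.61, 5.29, 6.56 and 11.7 FPKM. Both genes were lowest in CD and highest in WD+7KC, but the chains did not keep the same ratio: H2-DMb1 stood at 1.07 times H2-DMa in CD and 1.16 times in WD, and at 1.81 times in CD+7KC and 1.90 times in WD+7KC. The counting intervals of both levels overlapped in the libraries without 7KC and did not in those with 7KC.
The modulator H2-O and the coactivator stood at the bottom. H2-Oa had 0.108, 0.537, 0.376 and 0.877 FPKM, an estimated 1.05, 5.24, 3.14 and 9.43 reads. H2-Ob had 0.110, 0.403, 0.128 and 0.299 FPKM, or 2.98, 10.96, 2.98 and 8.96 reads. For these genes the libraries with 7KC were the higher ones within each diet, on few reads. Ciita was at 0.0731, 0.329, 0.574 and 0.678 FPKM, which corresponds to 3.0, 13.6, 20.2 and 30.8 reads by its shortest RefSeq mRNA. Neighbours among H2-Oa, H2-Ob and Ciita had overlapping intervals in every library, so their order was not resolved.

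**Figure D1:**
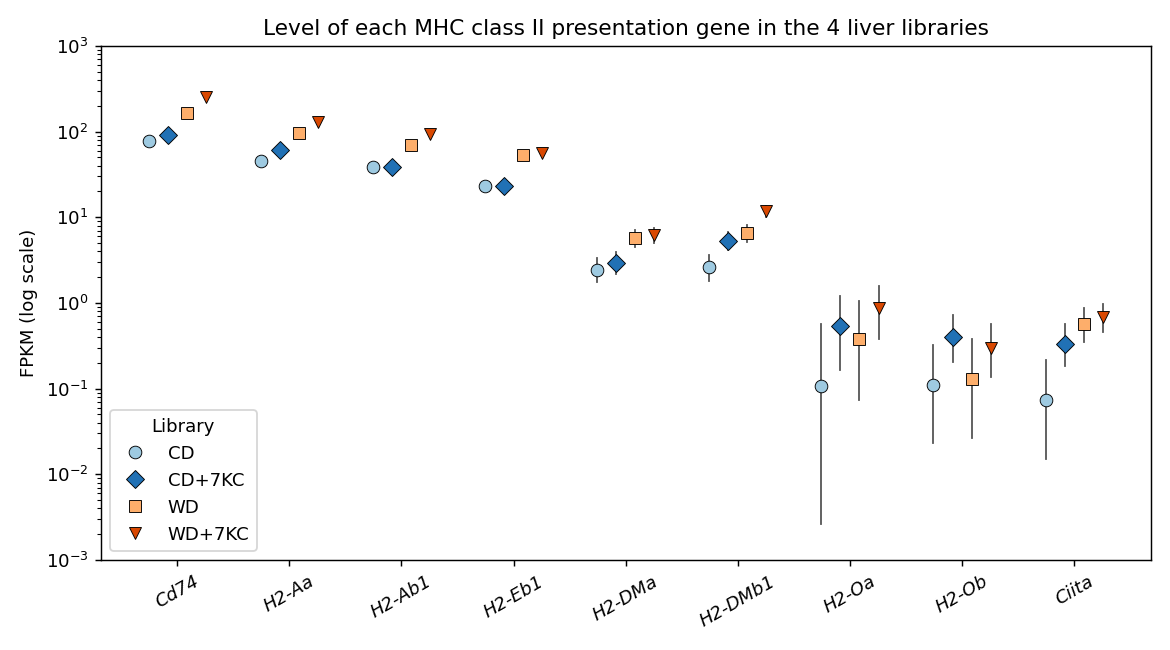
FPKM (log axis) of each of the 9 MHC class II presentation genes in the CD, CD+7KC, WD and WD+7KC libraries, 1 library each; vertical lines are 95% Poisson counting intervals from the estimated reads. Cd74, H2-Aa, H2-Ab1 and H2-Eb1 lie between 22.9 and 251 FPKM with both WD libraries above both CD libraries, while H2-Oa, H2-Ob and Ciita lie below 1 FPKM with wide intervals.

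Of the members, 7 lie together on chromosome 17. By the GENCODE vM21 annotation of GRCm38 they are H2-Oa (chr17:34092340-34095234), H2-DMa (chr17:34119541-34139101), H2-DMb1 (chr17:34153072-34160230), H2-Ob (chr17:34238903-34254414), H2-Ab1 (chr17:34257689-34269419), H2-Aa on the opposite strand (chr17:34282744-34287823) and H2-Eb1 (chr17:34305867-34316674). Ciita lies apart from them (chr16:10480059-10528418), as does Cd74. RefSeq promoter sequences (GRCm38.p6) were at hand for 6 members, and the 250 bases before each listed start were searched on both strands. The X box was searched as CC, any base, AG, any 2 bases, AC, any 2 bases and ATG. A shorter form, contained in some matches of the first, was AG, any base, AAC, any 2 bases and ATG, and was chosen after the sequences had been seen. The Y box was searched as ATTGG, which overlaps neither. The windows of H2-Eb1, H2-Ob and H2-Aa from 120 to 31 bases before the start are shown. H2-Eb1, a classical β chain, and H2-Ob hold the letters of an X box form and of the Y box. H2-Aa, the most abundant α chain, holds those of the Y box but not the searched X box letters. Capitals mark matches to the X box in either form and to the Y box on either strand.
H2-Eb1 (chr17:34305747-34305836, + strand): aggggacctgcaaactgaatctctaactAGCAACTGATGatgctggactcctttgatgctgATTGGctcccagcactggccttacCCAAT
H2-Ob (chr17:34238785-34238874, + strand): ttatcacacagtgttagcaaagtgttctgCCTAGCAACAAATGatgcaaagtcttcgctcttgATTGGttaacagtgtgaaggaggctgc
H2-Aa (chr17:34287854-34287943, - strand): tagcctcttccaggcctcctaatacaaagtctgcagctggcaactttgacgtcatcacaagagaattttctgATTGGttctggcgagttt
The Y box letters were found in 6 of the 6 members and in 33.8% of all 32851 promoters, so that this match alone sets few genes apart. For H2-DMa the match lay before the second of its listed starts. The X box letters were found in H2-DMb1 (CCTAGTAACTGATG) and H2-Ob and in 0.161% of all promoters, and the shorter letters also in H2-Eb1 and in 0.715% of all promoters. From the first base of the shorter X box to the first base of the Y box there were 34 bases in H2-DMb1, 33 in H2-Eb1 and 31 in H2-Ob. Both boxes on the same strand at 31 to 34 bases were found in 4 of the 32851 promoters, which were those of H2-DMb1, H2-Eb1, H2-Ob and H2-Eb2; the spacing was read from these same genes. H2-DMa, H2-Oa and H2-Aa did not hold the searched X box letters in this window. The search allowed no mismatch at the fixed letters, so an X box with other letters would be missed. Whether these promoters hold such a box was not tested.

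The question of what the western-type diet does was first asked without 7KC. In WD relative to CD, class II genes were about 2-fold higher as a group: all 9 had a higher FPKM, 7 had a log2 fold change above 1, none was below -1, and the median was 1.18. Among all 15597 genes tested the median was 0.0097, 5.31% were above 1, 4.38% below -1 and 50.9% above 0. Log2 fold changes are of FPKM + 0.1, which understates the change of low genes.
Cd74 was 2.14-fold higher in WD than in CD (95% counting interval 1.97 to 2.33). For H2-Eb1 the ratio was 2.32-fold (2.04 to 2.63) and for H2-Aa 2.08-fold (1.85 to 2.33). H2-Ab1 had the smallest ratio of the classical chains, 1.78-fold (1.57 to 2.01), and its interval did not overlap that of H2-Eb1. Both H2-DM chains were higher to a similar degree, H2-DMa by 2.33-fold (1.57 to 3.51) and H2-DMb1 by 2.51-fold (1.67 to 3.92).
Ciita had the largest ratio, 7.85-fold, with a counting interval of 2.30 to 40.8 because 3.0 reads stood behind its level in CD. H2-Oa and H2-Ob rested on only 1.05 to 3.14 reads in these libraries, and the intervals of both ratios included no change. The intervals of 7 members lay above 0 on the log2 scale, against 16.8% of genes with a single RefSeq mRNA above 0. These 7 include H2-Ab1 and leave out H2-Oa, whereas the 7 with a log2 fold change above 1 include H2-Oa and leave out H2-Ab1.

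With 7KC in both diets, the same diet contrast was of similar size. In WD+7KC relative to CD+7KC, 8 members were higher and 1 was lower, 6 were above 1 and none below -1, with a median log2 fold change of 1.09. Of all 15898 genes tested, 8.01% were above 1, 4.61% below -1 and 50.2% above 0, and the median was 0.0026. Counting intervals lay above 0 for 7 of 9 members and for 20.1% of genes with a single RefSeq mRNA. This comparison and the one without 7KC share no library.
Cd74 was 2.73-fold higher (2.54 to 2.93), a larger ratio than the one without 7KC with intervals that did not overlap. H2-Ab1 was 2.45-fold higher (2.19 to 2.75), also above its interval without 7KC. H2-Eb1, with 2.4-fold (2.13 to 2.71), and H2-Aa, with 2.13-fold (1.94 to 2.34), were close to their ratios without 7KC.
H2-DMa was 2.10-fold (1.48 to 3.03) and H2-DMb1 2.22-fold higher (1.67 to 2.97). Ciita was 2.06-fold higher (1.04 to 4.09), on 13.6 reads in CD+7KC and 30.8 in WD+7KC. The member that was lower was H2-Ob, at 0.403 FPKM in CD+7KC and 0.299 in WD+7KC, with an interval of the ratio (0.272 to 1.97) that included no change.

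The question of what 7KC adds was asked under each diet. Under WD, the median of the members was lower than with the change of diet, although H2-Ob had a larger value with 7KC (0.81) than in either diet comparison: 9 of 9 had a higher FPKM in WD+7KC than in WD, 1 was above 1, none was below -1, and the log2 fold changes had a median of 0.44. Of all 15753 genes tested, 6.21% were above 1, 2.79% below -1 and 50.2% above 0. The gene above 1 was H2-Oa, on 3.14 and 9.43 reads, with an interval that included no change.
The members with intervals above 0 were Cd74, H2-Aa, H2-Ab1 and H2-DMb1, 4 of 9, beside 13.7% of all genes with a single RefSeq mRNA. H2-DMb1 had the largest ratio of these, 1.79-fold (1.36 to 2.39), followed by Cd74 with 1.51-fold (1.42 to 1.61). H2-Aa was 1.36-fold (1.25 to 1.48) and H2-Ab1 1.35-fold higher (1.23 to 1.49), so that both I-A chains had nearly the same ratio.
H2-Eb1 had 1.06-fold (0.960 to 1.16) and H2-DMa 1.09-fold (0.804 to 1.47), and both intervals included no change. Ciita was 1.18-fold with an interval of 0.664 to 2.23, which does not exclude a doubling. With equal sums the ratios in this comparison were larger: the median log2 fold change of the members was 0.66 while that of all genes was 0.21, and that of H2-Eb1 was 0.30, beyond the upper bound of its counting interval as deposited (0.22). Whether H2-Eb1 was higher with 7KC under WD thus depended on the scaling. Rescaling changed the size of these values, and all 9 members remained higher in WD+7KC.

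Under CD, 8 members were higher and 1 lower in CD+7KC than in CD, 3 were above 1, none was below -1, and the log2 fold changes had a median of 0.41. Of all 15684 genes tested, 3.84% were above 1, 2.91% below -1 and 49.3% above 0. The 3 genes above 1 were H2-Oa, H2-Ob and Ciita, each with at most 3.0 reads in CD, and none of the members with at least 10 reads in both libraries was above 1. Of the latter, H2-DMb1 came closest, at 0.99.
H2-DMb1 again had the largest ratio among the well-covered members, 2.03-fold (1.34 to 3.18). H2-Aa was 1.33-fold (1.17 to 1.499) and Cd74 1.19-fold higher (1.08 to 1.30). Ciita was 4.5-fold higher, with an interval of 1.30 to 25.2, and the intervals of H2-Oa and H2-Ob included no change. In total 4 of 9 intervals lay above 0, beside 11.0% of all genes with a single RefSeq mRNA.
H2-Ab1 (0.980-fold, 0.854 to 1.12), H2-Eb1 (1.02-fold, 0.880 to 1.18) and H2-DMa (1.20-fold, 0.767 to 1.88) had intervals that included no change. For H2-Ab1 the log2 fold change was -0.029 with the deposited values, 0.011 with equal sums and 0.010 with upper-quartile scaling. H2-Aa and H2-Ab1, the chains of 1 molecule, thus had ratios to CD whose intervals did not overlap, and H2-Aa stood at 1.18 times H2-Ab1 in CD and at 1.59 times in CD+7KC.

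The change with 7KC under WD minus that under CD was 0.46 for H2-Ab1 (approximate 95% counting interval 0.22 to 0.70) and 0.35 for Cd74 (0.19 to 0.51), on the log2 scale. For H2-Aa (0.035), H2-Eb1 (0.051), H2-DMa (-0.14) and H2-DMb1 (-0.16) the corresponding intervals included 0. With FPKM + 0.1 the low members had negative differences, -1.10 for Ciita, -0.58 for H2-Oa and -0.45 for H2-Ob. The intervals belong to ratios without the pseudocount. On these the differences were -1.93 for Ciita (-3.90 to 0.044), -1.10 for H2-Oa (-4.72 to 2.53) and -0.65 for H2-Ob (-3.28 to 1.99). Each of these intervals also included 0. After rescaling to equal sums, the changes with 7KC under WD and under CD were 0.81 and 0.29 for Cd74 and 0.66 and 0.45 for H2-Aa. The intervals hold counting error only, and with 1 library in each group the difference between diets was not tested.

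**Figure D2:**
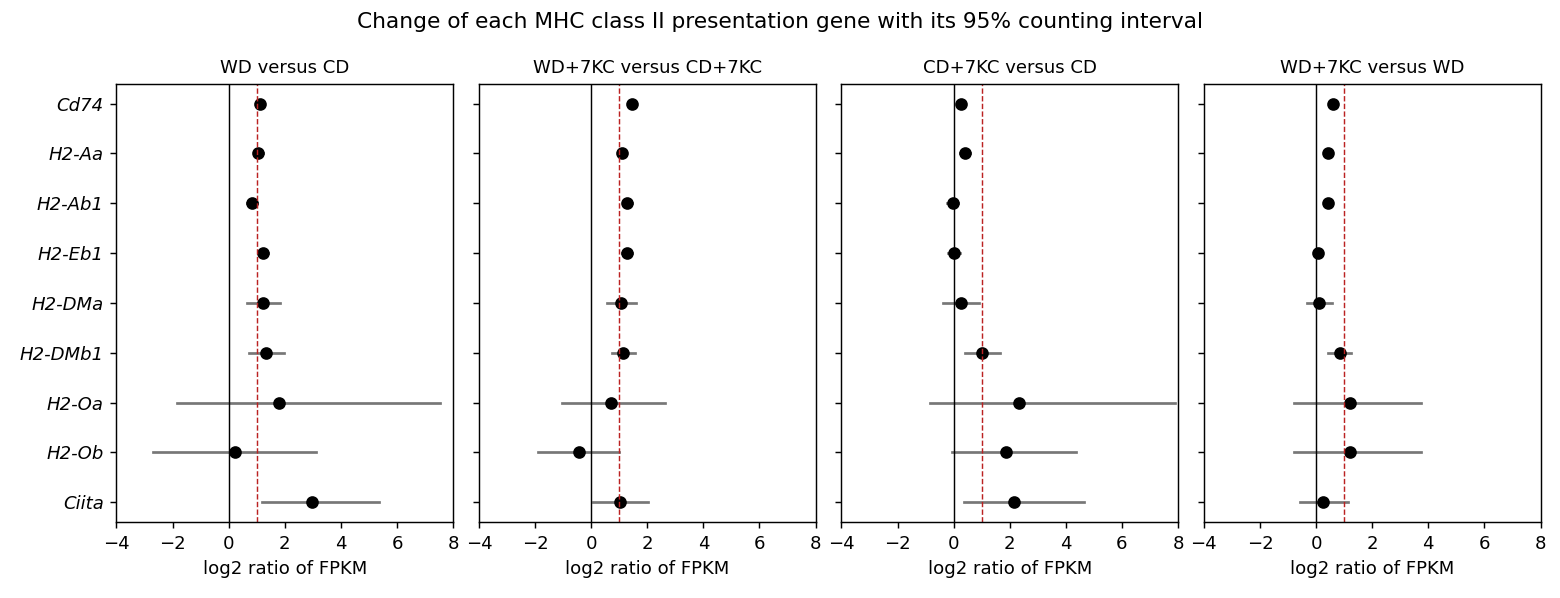
Log2 ratio of the deposited FPKM values (x axis, no pseudocount) for each MHC class II presentation gene in 4 comparisons; horizontal lines are exact 95% counting intervals and the dashed line marks a log2 ratio of 1. Cd74, H2-Aa, H2-Ab1, H2-Eb1, H2-DMa and H2-DMb1 lie near the dashed line in both comparisons of WD with CD, and H2-Eb1 and H2-DMa have intervals across 0 in both comparisons of 7KC.

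H2-DMb1 has a near copy beside it, H2-DMb2. Of the 75-base windows of the H2-DMb1 mRNA, the read length of the study, 19.1% also occur in H2-DMb2, so a part of its reads could be assigned to either gene. H2-DMb2 was at 0.157, 0.156, 0.365 and 0.992 FPKM, low beside H2-DMb1 in every library. No 75-base window of the other 8 members occurred in an annotated transcript of another gene. H2-Eb2, a further β chain gene, was listed at 0 in CD and CD+7KC, which allows up to 0.0859 and 0.0854 FPKM (3 reads), and was at 0.133 FPKM in WD and 0.103 in WD+7KC. H2-Ea-ps, the I-E α chain pseudogene, was listed at 0 in all 4 libraries.

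The stretch of chromosome 17 from H2-Oa to H2-Eb2 spans 249 kb (chr17:34092340-34341412) and holds 14 listed genes, of which 7 are members. Between H2-DMb1 and H2-Ob lie Psmb9, Tap1, Psmb8 and Tap2, which serve class I presentation. Brd2, a chromatin reader on the opposite strand (chr17:34112023-34122634), follows H2-Oa and overlaps the start of the annotated H2-DMa. In WD relative to CD the 7 members had a median log2 fold change of 1.18 with 5 above 1, while these 5 neighbours, each of at least 1 FPKM, had a median of 0.58 with 0 above 1. The members were not filtered by level, and the remaining genes of the stretch, H2-Eb2 (1.22) and H2-DMb2 (0.86), were below 1 FPKM in every library. Psmb8 had 0.70, Tap2 0.66, Tap1 0.58, Psmb9 0.56 and Brd2 -0.26 there. In WD+7KC relative to WD the neighbours ranged from -0.17 to 0.28. Genes of the region thus differed in their values in the same libraries.

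**Figure D3:**
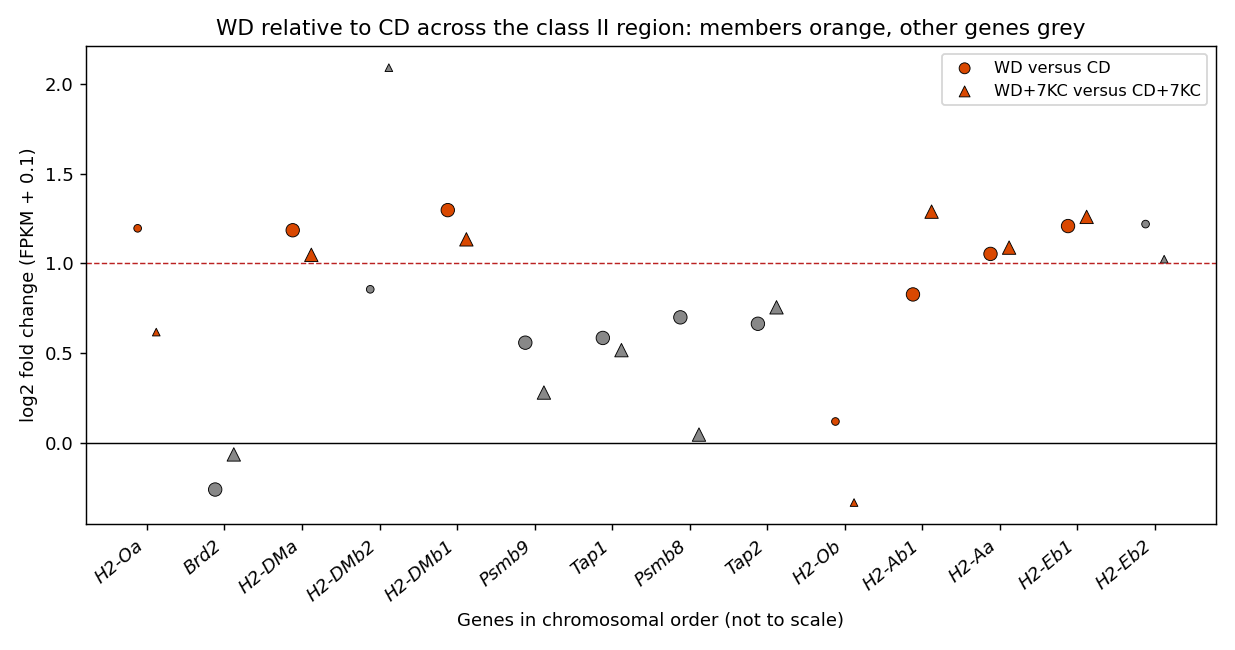
Log2 fold change (FPKM + 0.1) in WD relative to CD (circles) and in WD+7KC relative to CD+7KC (triangles) for the 14 listed genes from H2-Oa to H2-Eb2, in chromosomal order; large symbols are genes of at least 1 FPKM in 1 of the libraries. The 5 large-symbol members lie between 0.83 and 1.30, while Psmb9, Tap1, Psmb8, Tap2 and Brd2 lie between -0.26 and 0.76.

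The partners of Ciita on class II promoters were mostly at similar levels in all libraries. In a list of 12 regulators, which holds the RFX subunits (Rfx5, Rfxap, Rfxank), the NF-Y subunits (Nfya, Nfyb, Nfyc), Creb1, the acetyltransferases Crebbp, Ep300 and Kat2b, Hdac2 and Nlrc5, 2 were higher and 10 lower in WD than in CD, with a median of -0.11 and 0 beyond 1 in either direction. Rfx5 was at 2.503, 2.22, 1.48 and 2.12 FPKM, Rfxap at 4.68, 3.74, 5.45 and 4.99, and Rfxank at 2.13, 2.08, 2.01 and 1.90. Nlrc5, the related coactivator of class I genes, was at 1.82, 2.55, 1.72 and 1.62 FPKM. Of these 4 genes Rfxap was higher in both WD libraries than in both CD libraries, as Ciita was, by a smaller margin. In WD+7KC relative to WD, 6 regulators were higher and 6 lower.
Of the 14 genes around interferon γ, the main inducer of Ciita, 9 were higher and 3 lower in WD than in CD, with a median of 0.39 and 0 above 1. Ifng itself was listed at 0 in CD, CD+7KC and WD and was at 0.164 FPKM in WD+7KC. Irf1, a factor that acts on Ciita, was at 8.79, 7.75, 12.8 and 18.3 FPKM. Its level was highest in WD+7KC. The myeloid factors Irf8, at 2.34, 2.77, 3.48 and 7.39 FPKM, and Spi1, at 5.15, 6.66, 8.62 and 16.2 FPKM, were also highest there. In WD+7KC relative to WD, 11 of the 14 genes were higher and 4 were above 1, with a median of 0.53.

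Several genes that process antigens and the invariant chain were higher on WD. Ctss, the cathepsin that trims the invariant chain in antigen-presenting cells, was at 35.5, 40.8, 66.1 and 103 FPKM, an order like that of Cd74. Ifi30, the lysosomal thiol reductase that unfolds antigens, was at 19.7, 25.5, 44.4 and 71.4 FPKM and was the gene of this list above 1 in WD relative to CD (1.17). Lgmn, an asparagine endopeptidase, was at 34.5, 36.5, 46.8 and 85.3 FPKM. In these 3 genes the libraries stood in the order CD, CD+7KC, WD and WD+7KC. The broadly expressed lysosomal proteases Ctsb (149, 175, 210 and 254 FPKM), Ctsd (302, 338, 395 and 490) and Ctsz (161, 167, 289 and 323) stood in the same order.
Other members of the list did not: Ctsl was at 399, 308, 413 and 412 FPKM, Ctsh at 158, 152, 159 and 137, and Sppl2a, which cleaves the last membrane stub of the invariant chain, at 32.7, 29.2, 32.8 and 27.7. These proteins serve many cell types, hepatocytes included. Over the whole list of 13, 11 were higher and 2 lower in WD than in CD with a median of 0.30, and in WD+7KC relative to WD the median was 0.20 with 8 higher and 5 lower.
Genes that set how long class II stays on the surface were mixed. March1, the ubiquitin ligase that removes class II from the surface, was at 0.437, 0.750, 0.931 and 1.93 FPKM. Cd83, which opposes it, was at 1.27, 2.91, 1.48 and 3.96 FPKM, higher with 7KC than without under both diets and little different between CD and WD. March8, a broadly expressed relative, was at 42.5, 38.9, 40.2 and 37.7 FPKM.
Of the costimulators, Cd86 was at 1.24, 1.43, 1.22 and 2.42 FPKM, Cd40 at 0.326, 0.325, 0.501 and 0.986 and Cd274, the inhibitory ligand PD-L1, at 0.739, 0.763, 1.14 and 1.53. Cd80 was listed at 0 in CD and was at 0.303, 0.424 and 0.604 FPKM in the other libraries. Over the 7 costimulators above 0, 5 were higher in WD than in CD with a median of 0.11, beside 1.18 for the class II genes. In WD+7KC relative to WD, 6 of 8 costimulators were higher with a median of 0.54, beside 0.44 for the class II genes. Cd4, the T cell receptor partner that binds class II, stayed between 0.0938 and 0.199 FPKM in all libraries.

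Marker genes of the cells that make class II moved with the diets as well, and their part in the class II values was not tested. Over 16 Kupffer cell and macrophage markers the summed level was 295, 433, 490 and 929 FPKM, and none was at 0. Their median log2 fold change was 0.71 in WD relative to CD, with 13 higher and 3 lower, and 0.96 in WD+7KC relative to WD, with 16 higher of 16. The class II median lay 0.48 above the macrophage median in the first comparison and 0.52 below it in the second. In WD+7KC relative to CD+7KC the medians were 1.09 and 1.11, and in CD+7KC relative to CD 0.41 and 0.54. By their mean over the 4 libraries Lyz2, Cd5l and C1qb were the most abundant markers of this list, although C1qc and C1qa were above Cd5l in CD. Cd5l was at 30.9, 66.3, 81.1 and 173 FPKM.
Pan-leukocyte markers summed to 108, 134, 155 and 266 FPKM, with medians of 0.60 in WD relative to CD and 0.95 in WD+7KC relative to WD. Sinusoidal endothelial markers, among them Clec4g, Fcgr2b and Mrc1, summed to 70.9, 111, 60.7 and 170 FPKM. Their median was -0.16 in WD relative to CD and 1.52 in WD+7KC relative to WD, with 8 of 8 above 1 there, an order of the libraries unlike that of the class II genes.
Dendritic cell markers other than Kmo, which hepatocytes express, summed to 4.82, 4.18, 7.12 and 9.59 FPKM, with Itgae at 0 in CD. Batf3 and Itgax had the highest means of this list after Kmo, although Zbtb46 was above Itgax in CD and CD+7KC, as was Clec9a in CD+7KC. Itgax was at 0.664, 0.615, 1.24 and 2.36 FPKM. The median of all 12 listed genes, Kmo included, was 0.45 in WD relative to CD and 0.29 in WD+7KC relative to WD. Kmo itself had -0.49 and -0.14, so that these medians lie lower than they would without it. Monocyte markers other than Fn1 summed to 27.9, 15.2, 24.95 and 38.4 FPKM, lowest in CD+7KC.
B cell markers were near the limit of detection: 10 listed genes summed to 2.38, 4.57, 3.56 and 4.46 FPKM, with Ms4a1, Pax5 and Cr2 at 0 in CD+7KC and Pax5 and Cr2 at 0 in WD. T cell markers summed to 1.48, 2.16, 4.44 and 3.85 FPKM over 9 listed genes, with Cd5 at 0 in CD and WD and Cd8b1 at 0 in CD. Their median was 0.99 in WD relative to CD, with 7 of 8 higher and 4 above 1, and 0.26 in WD+7KC relative to WD. The 4 above 1 were Cd3e, Cd3g, Cd8a and Cd8b1, near the limit of detection in CD at 0.0738, 0.111, 0.0626 and 0 FPKM. Cd3g alone made up 1.81 FPKM of the sum in WD, beside 0.111, 0.332 and 0.503 in CD, CD+7KC and WD+7KC. Hepatocyte markers had a median of 0.0031 in WD relative to CD and -0.22 in WD+7KC relative to WD.

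**Figure D4:**
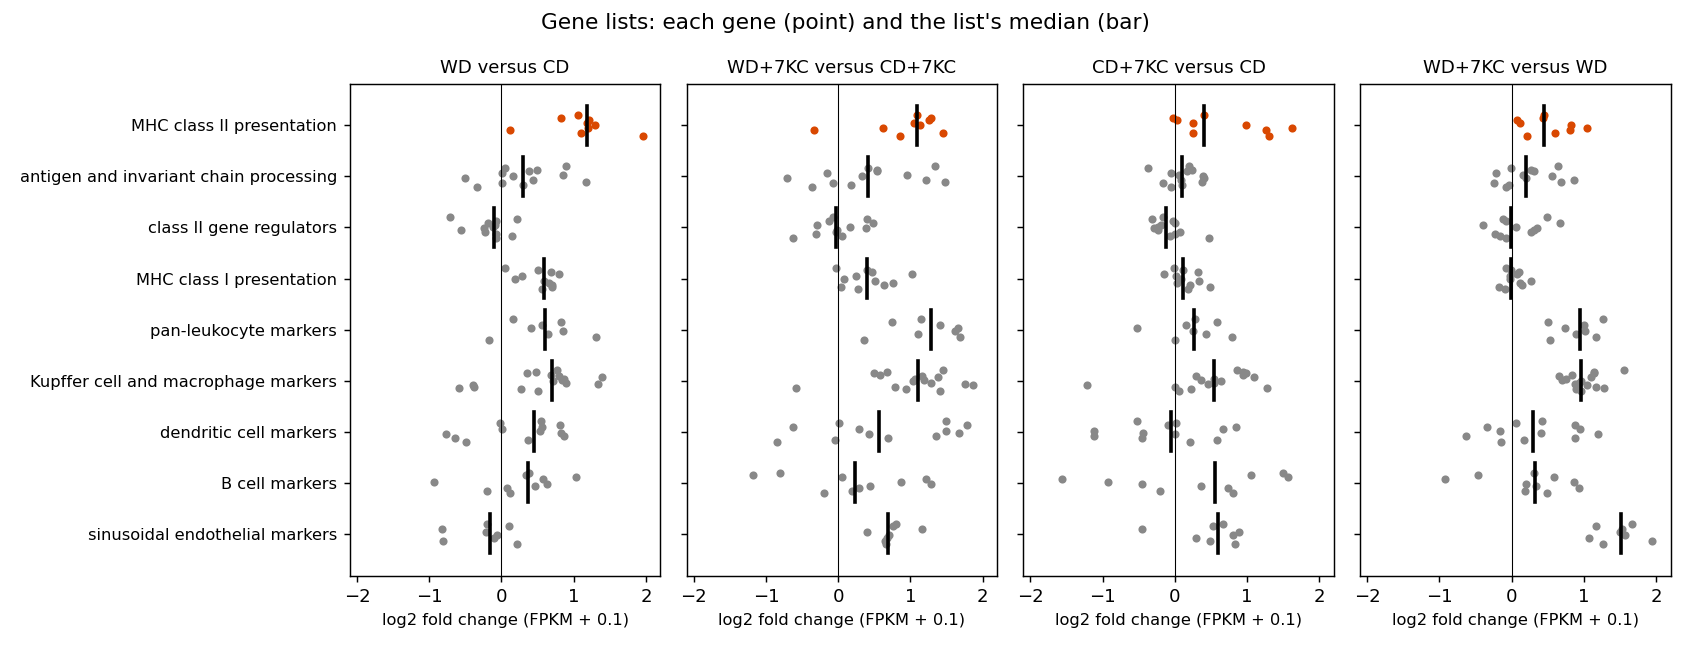
Log2 fold change (FPKM + 0.1) of each gene (points) and the median (bars) of 9 gene lists in 4 comparisons between single libraries. The class II median is 1.18 in WD relative to CD, where the sinusoidal endothelial median is -0.16, and 0.44 in WD+7KC relative to WD, where the sinusoidal endothelial median is 1.52 and the macrophage median 0.96.

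Class I presentation genes gave smaller values. Over 11 genes the median was 0.58 in WD relative to CD, with 11 higher and 0 above 1, and -0.0023 in WD+7KC relative to WD, with 5 higher and 6 lower. B2m, the class I light chain, was at 2508, 2662, 2858 and 2813 FPKM, and H2-K1 at 787, 783, 811 and 767. H2-D1, another class I heavy chain, was at 335, 362, 478 and 478 FPKM, and H2-Q7 at 6.97, 6.26, 12.2 and 12.9. B2m, H2-D1 and H2-Q7 were higher in both WD libraries than in both CD libraries, as the class II chains were, and H2-K1 was not.

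Of the 10680 genes whose mean reached 1 FPKM, those nearest to the mean profile of H2-Aa, H2-Ab1, H2-Eb1 and Cd74 over the 4 libraries were Cd34, 2310040G24Rik, Kctd17, Cd9 and Galns. Likeness was the Euclidean distance between log2 profiles centred on their own mean, and these 5 lay at 0.068 to 0.11, while the 4 genes themselves lay at 0.17 to 0.25. Cd9, a tetraspanin, was at 28.1, 28.4, 54.6 and 70.9 FPKM, and Cd34 at 0.823, 0.880, 1.73 and 2.25. Of the other members, H2-DMa lay at 0.21 and H2-Ob farthest at 1.51. With 4 points a profile many genes come close, and the list is a description.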

How the data were processed

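RNA sequencing covered 4 liver libraries, 1 each of CD, CD+7KC, WD and WD+7KC, grouped by their titles. The authors mapped 75-base single-end reads to mm10 with TopHat2 2.0.13, Bowtie2 2.2.3 and SAMtools 0.1.19 and deposited 1 FPKM value per gene symbol from Cufflinks 2.2.1. The annotation and Cufflinks options were not given in the sources used here. Cufflinks shares reads among overlapping and similar transcripts, and FPKM depends on the few most abundant genes of a library.

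Each log2 fold change is of FPKM plus 0.1, over genes not at 0 in both libraries, and those above 1 or below -1 were counted. Depth was read from the spacing of low FPKM values in those of 14589 genes having 1 RefSeq mRNA whose mRNA exceeded 500 bases, taking the mRNA length (GENCODE vM21) minus 200 bases. Between 70.9% and 72.1% of low values lay within 0.1 of a whole read. Reads of Cd74 and Ciita used the shortest RefSeq mRNA, which gives the widest interval. Intervals of ratios are exact (Clopper-Pearson) on rounded reads, without a pseudocount, and intervals of levels are exact Poisson; intervals of differences between ratios are normal approximations. The members and lists, and the rule for named genes (members, pathway genes of the fixed lists, leading markers, and the 5 nearest profiles), were chosen with earlier results of these data known. The symbols H2-Ea, Ighm, Igkc, Trac, Trbc1 and Trbc2 had no match in the tables used here. Promoter entries for H2-Ab1, Cd74 and Ciita were not used here. The code was tested on simulated data. Python 3.11.15, numpy 2.4.6, pandas 2.3.3, scipy 1.17.1 and matplotlib 3.10.9 were used.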

Additional observations from a re-analysis of the deposited data

Results flagged for a closer look

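H2-Ab1 was singled out because its change with 7KC had opposite signs under the diets: the log2 fold change was 0.43 in WD+7KC relative to WD and -0.029 in CD+7KC relative to CD. The value under CD changed sign with equal sums and with upper-quartile scaling, and the difference was not tested.

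H2-Ob was singled out because its change with WD had opposite signs with and without 7KC: the log2 fold change was -0.33 in WD+7KC relative to CD+7KC and 0.12 in WD relative to CD, on 2.98 to 10.96 reads per library. The difference was not tested.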

How the results depend on the processing

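The median log2 fold change of the members stayed above 0 under every alternative run, from 0.43 to 0.66 in WD+7KC relative to WD, 0.25 to 0.45 in CD+7KC relative to CD, 0.96 to 1.23 in WD relative to CD and 1.02 to 1.30 in WD+7KC relative to CD+7KC. A median was set against the counting interval of the member at the main median, as no interval of the median itself was computed. That member was H2-Aa in both WD+7KC relative to WD (0.32 to 0.57) and WD+7KC relative to CD+7KC (0.95 to 1.23). Medians beyond its interval were 0.66 and 1.30, in this order, with equal sums, and 0.62 and 1.28 without the 20 highest genes. Of the single-member values, 283 stayed within their counting interval and 19 did not, among the latter H2-Eb1 in WD+7KC relative to WD, which was 0.30 with equal sums and 0.26 without the 20 highest genes. The 283 include runs that only choose genes, such as a minimum of 1 FPKM or at least 10 reads, and cannot move a value. The intervals of H2-Oa and H2-Ob were also wide, so these counts do not measure how stable the values are. Counts above 1 in WD+7KC relative to WD, 1 with the main settings, were 0 with a pseudocount of 1, with a minimum of 1 FPKM and with at least 10 reads in both libraries (chosen after seeing the data), 2 with a pseudocount of 0.01 or without the 20 highest genes, 3 with equal sums and 4 at 1.5-fold. In CD+7KC relative to CD the count of 3 became 0 with a pseudocount of 1, a minimum of 1 FPKM or at least 10 reads. It was 4 with a pseudocount of 0.01, equal sums, upper-quartile scaling, without the 20 highest genes and at 1.5-fold. H2-DMb1, at 0.99 with the main settings, passed 1 with these scalings and with the pseudocount of 0.01, at 1.004 to 1.04. In WD relative to CD the count of 7 became 4 with a pseudocount of 1. It was 5 with a minimum of 1 FPKM or at least 10 reads, and 8 at 1.5-fold. In WD+7KC relative to CD+7KC the count of 6 became 5 with a pseudocount of 1 and 8 at 1.5-fold. It was 7 with a pseudocount of 0.01, with equal sums and without the 20 highest genes. The median over members of the 7KC change under WD minus that under CD was -0.14, and 0.043 with a minimum of 1 FPKM, 0.036 with equal sums and 0.021 without the 20 highest genes, so its sign is not settled. No member had a log2 fold change below -1 in any comparison with any setting run. No paired analysis was possible because each group has 1 library. At this depth, no difference in H2-Oa or H2-Ob was detected, as each counting interval of their ratios included no change. The interval of H2-Ob in CD+7KC relative to CD, 0.963 to 20.4, came close to excluding it.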
